A study of Mus musculus with 4 samples.

Results

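The transcripts of the mitochondrial genome were followed in lymphatic endothelial cells (LECs) of mouse embryos. They were taken as every gene ID of the deposited table that GENCODE release M21 pairs with a symbol starting with mt-, which gave 37 of 55385 gene IDs, namely 13 mRNAs, 2 rRNAs and 22 tRNAs. LECs were sorted as CD45- PDPN+ CD31+ cells at E13.5 from the trunk, after removal of the head above the tongue, the limbs, the tail and the inner organs. 2 libraries labelled Osr1GCE/GCE (genotype Osr1-KO in the deposited labels), in which both Osr1 alleles carry a GFP-Cre fusion, were set against 2 libraries of Osr1controls, which held Osr1+/+ and Osr1GCE/+ embryos by the study's methods and are given as WT in the labels. Each library held the LECs of 8 to 10 embryos, so the replicates are separate pools and all errors are those between pools. Osr1 is known as a gene of mesenchymal cells rather than of LECs, and the GCE allele is present in every cell of the embryo.

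The deposited values are normalized counts, that is reads per gene divided by a size factor that evens out the depth of the libraries. Osr1 itself, counted over the whole gene, had 168 and 303 normalized counts in the libraries labelled Osr1GCE/GCE, against 32.8 and 30.4 in Osr1controls. Whole-gene counts cannot assign reads to the GCE or the wild-type allele, so this value does not check the labels, and the groups are called by their labels throughout. The libraries held 37865172 and 31586765 reads in genes when labelled Osr1GCE/GCE, against 53438492 and 36535451 in Osr1controls. LEC markers were present in every library, with a summed level of 3166 and 2981 TPM (counts scaled by gene length and library sum) in the libraries labelled Osr1GCE/GCE against 1762 and 2479 TPM in Osr1controls, and 4 of 8 tested LEC markers passed the test as higher. Ccl21a was the 1 listed LEC marker of 9 under the filter on low values. The 12 skeletal muscle markers summed to 158 and 171 TPM in the libraries labelled Osr1GCE/GCE against 317 and 348 TPM in Osr1controls, and 6 of them passed as lower. The 12 mesenchyme markers summed to 1505 and 1788 TPM against 2987 and 2399 TPM in Osr1controls, with 3 passing as lower and Osr1 as higher. The 7 germ cell markers summed to 376 and 409 TPM against 650 and 1065 TPM in Osr1controls, with 3 passing as lower. The 8 leukocyte markers summed to 211 and 221 TPM against 184 and 189 TPM in Osr1controls, with 1 higher call (Mrc1). The 8 blood endothelial markers summed to 1152 and 1051 TPM against 1176 and 939 TPM, with 1 higher call (Kdr). Log2 fold changes were negative for 4 of the 8 leukocyte and 6 of the 8 blood endothelial markers. Of the blood endothelial markers 3 (Esam, Flt1 and Nrp1) lay lower in both libraries labelled Osr1GCE/GCE and 2 (Kdr and Notch1) higher. Over all genes tested 28.9% lay lower in this way and 24.7% higher. None of the 6 tested red blood cell markers passed, and the 7 listed summed to 2271 and 1338 TPM against 2403 and 1610 TPM in Osr1controls. The 10 genes that respond to tissue dissociation summed to 3593 and 4417 TPM against 5453 and 5643 TPM in Osr1controls, with 1 lower call. No gene of these lists was at 0 in every library. The part of these cells in the mitochondrial values was not tested. In bulk libraries fewer cells of a type and less RNA per cell cannot be told apart.

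The mitochondrial genome is a small circle with genes on both strands. It is transcribed by the polymerase POLRMT with the factors TFAM and TFB2M into long precursors, from which the tRNAs that lie between the other genes are cut out by RNase P and ELAC2, and this releases the mRNAs and rRNAs. Most mRNAs then receive a poly(A) tail from MTPAP and are stabilised by LRPPRC and SLIRP. The mRNAs encode subunits of respiratory complexes I, III and IV and of the ATP synthase (complex V), the 12S and 16S rRNAs (mt-Rnr1 and mt-Rnr2) form the core of the mitochondrial ribosome, and the tRNAs decode within it. The library kit captured polyadenylated RNA and did not mark strand, so reads from either strand of a mitochondrial gene cannot be told apart.

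mt-Atp8 and mt-Atp6, which encode 2 membrane subunits of the ATP synthase, share bases and are read in different frames. mt-Atp8 (chrM:7766-7969 of mm10, plus strand) is shown because it was the 1 mitochondrial gene that passed the test, and its 43 capitals are the bases it shares with mt-Atp6. Sequences are those of the GENCODE M21 transcripts.
mt-Atp8: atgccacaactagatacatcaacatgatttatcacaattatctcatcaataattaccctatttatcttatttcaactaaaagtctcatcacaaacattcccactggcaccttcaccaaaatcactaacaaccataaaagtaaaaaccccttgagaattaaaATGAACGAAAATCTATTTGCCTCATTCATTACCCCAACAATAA
The next 4 sequences are tRNA genes with enough reads for a test, all on the plus strand, at chrM:2676-2750 (mt-Tl1), chrM:3706-3774 (mt-Ti), chrM:3845-3913 (mt-Tm) and chrM:4950-5016 (mt-Tw). Capitals mark bases that the gene shares with a neighbour, of which mt-Tl1 and mt-Tm have none.
mt-Tl1: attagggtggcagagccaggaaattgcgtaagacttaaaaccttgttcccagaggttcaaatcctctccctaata
mt-Ti: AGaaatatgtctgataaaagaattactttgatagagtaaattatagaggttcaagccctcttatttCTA
mt-Tm: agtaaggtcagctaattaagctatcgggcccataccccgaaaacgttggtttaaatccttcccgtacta
mt-Tw: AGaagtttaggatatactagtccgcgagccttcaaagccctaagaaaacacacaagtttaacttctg

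A stretch of the mitochondrial genome has an almost identical copy in the nucleus, which bears on how its reads could be counted. On chromosome 1 of mm10, 7 annotated pseudogenes of the minus strand (Gm29216, Gm28661, Gm10925, Gm28437, Gm28438, Gm10222 and Gm28439) lie within chr1:24611535-24616197 in the order of mt-Co1, mt-Co2, mt-Atp6, mt-Co3, mt-Nd3, mt-Nd4l and mt-Nd4. They correspond to chrM:6381-11042, and 4149 bases of the annotated transcripts could be aligned, with 7 differences. These cover the aligned bases only, as the whole stretch has 4663 bases on chromosome 1 and 4662 in the mitochondrial genome. Of the 7 pseudogenes 5 had no difference from the mitochondrial gene over 3312 bases. mt-Co2, mt-Atp8, mt-Atp6, mt-Co3, mt-Nd3 and mt-Nd4l lie wholly inside the copied stretch, mt-Co1 and mt-Nd4 partly, with 31.8% and 63.6% of their bases, and mt-Nd1, mt-Nd2, mt-Nd5, mt-Nd6, mt-Cytb and both rRNAs wholly outside it. The differences are shown in capitals in the first bases of the stretch, where 6 of them fall (mt-Co1, chrM:6381-6410, plus strand, and Gm29216, chr1:24616168-24616197, minus strand), and in the first bases of mt-Nd3, where the remaining 1 falls (chrM:9459-9488, plus strand, and Gm28438, chr1:24613090-24613119, minus strand).
mt-Co1: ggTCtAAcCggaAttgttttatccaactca
Gm29216: ggATtGGcAggaTttgttttatccaactca
mt-Nd3: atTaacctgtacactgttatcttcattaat
Gm28438: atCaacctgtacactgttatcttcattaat
Counted from 1 at the first base of the mitochondrial gene, with its base first and that of the copy last, the difference in mt-Nd3 is T3C and those in mt-Co1 are T1056A, C1057T, A1059G, A1060G, C1062A and A1066T. mt-Atp8 has no annotated pseudogene there, but the interval between Gm10925 and Gm28661, chr1:24614652-24614884, has 233 bases, as has the corresponding mitochondrial interval, and its sequence was not analysed here.

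Mitochondrial genes held 3.26% and 2.98% of the reads in genes in the libraries labelled Osr1GCE/GCE, against 2.98% and 2.65% in Osr1controls, and on this scale the groups overlapped, since the second library labelled Osr1GCE/GCE and the first Osr1controls library differed by less than the digits shown. Levels differed between the genes inside and outside the copied stretch. Per kilobase of gene, the mean over the 4 libraries of the 5 mRNAs wholly outside the stretch ran from 12466 normalized counts for mt-Nd6, the 1 mRNA of the minus strand, to 162254 for mt-Cytb, which encodes cytochrome b of complex III. The 6 mRNAs wholly inside ran from 190 for mt-Nd3 to 1568 for mt-Co2. mt-Co1, which encodes the catalytic subunit of cytochrome c oxidase, had the highest level of all at 214955 per kilobase, followed by mt-Cytb, mt-Nd1 at 156847 and mt-Rnr2 at 110079. mt-Cytb lay above mt-Nd1 in each library, but the ranges of the pair over the libraries overlapped. This order uses whole gene lengths, and it depends on how the copied bases are treated, as over the bases outside the stretch alone mt-Co1 had 315389 per kilobase and mt-Nd4 had 133640, above mt-Rnr2, against 48685 over the whole mt-Nd4 gene. The 7 mRNAs with sequence outside the stretch made up 99.6% to 99.7% of all mitochondrial mRNA counts, and the 6 inside made up 0.295% to 0.408%.

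**Figure D1:**
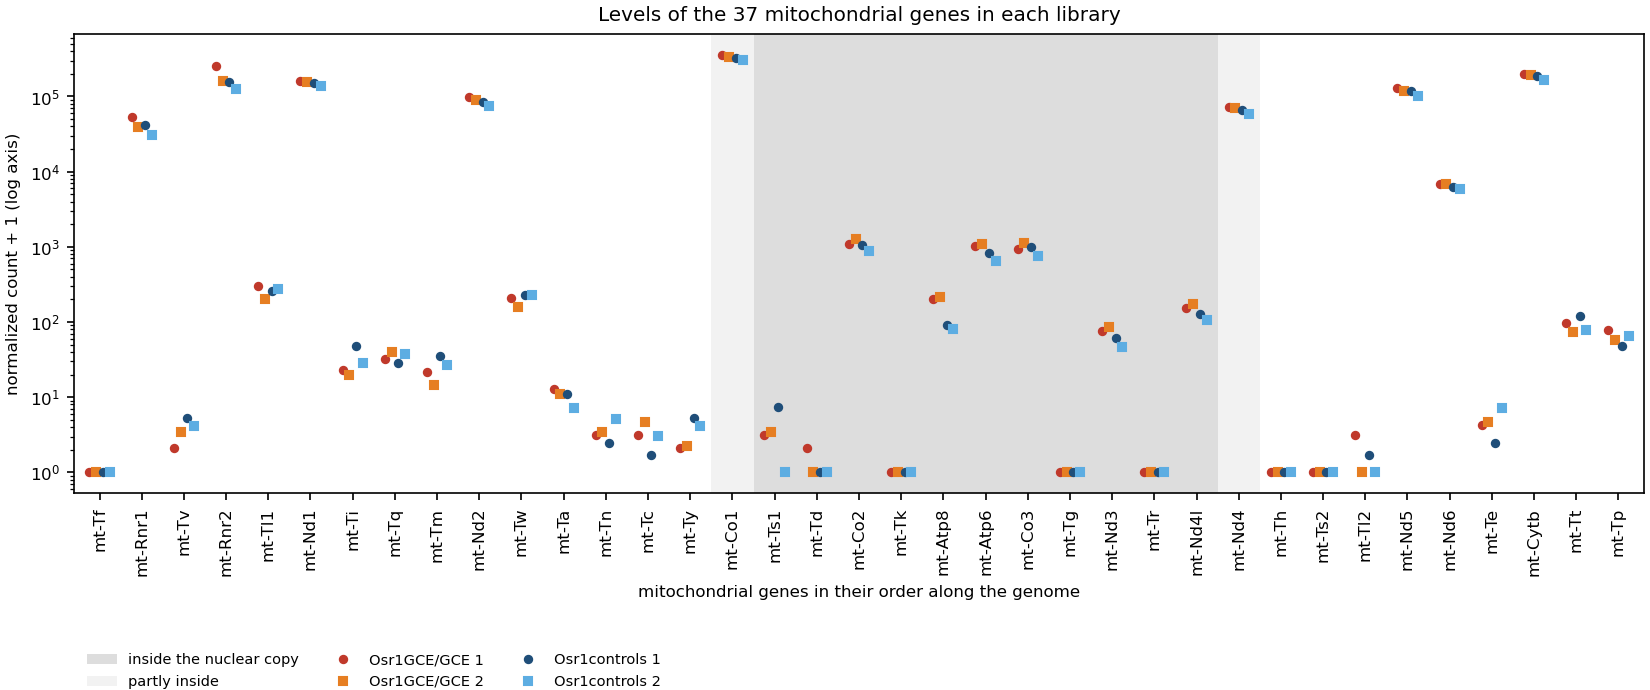
Normalized count plus 1 (log axis) of each of the 37 mitochondrial genes in their order along the genome, in the 2 libraries labelled Osr1GCE/GCE and the 2 Osr1controls libraries. The genes on dark grey lie wholly inside the stretch copied on chromosome 1, and there mt-Co2, the highest, has 890 to 1268 counts while mt-Co1 and mt-Nd4 beside it lie between 58568 and 360098.

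Of the 13 mRNAs 1 passed the test as higher in the libraries labelled Osr1GCE/GCE (limma, with a log2 fold change of 0.3 or more in size, p under 0.05 after Benjamini-Hochberg adjustment over 19479 genes, and a mean TPM over 1) and none as lower. Over all genes tested 1.13% were called higher and 1.75% lower, so the share called among the 13 mRNAs rests on a single gene. All 13 had a positive log2 fold change, with a median of 0.23 and a range of 0.13 to 1.27, against a median of -0.020 over all genes tested, of which 47.2% were positive. For 12 of the 13 both libraries labelled Osr1GCE/GCE lay above both Osr1controls libraries, as did 24.7% of all genes tested. When values were instead scaled to library totals, all 13 log2 fold changes stayed positive and 8 of the 13 were separated, against 17.9% of all genes. The mRNAs share precursors and a library's scaling, so they are not independent of each other. At an unadjusted p under 0.05, 3 mRNAs were higher (mt-Atp8, mt-Atp6 and mt-Nd2) and none lower, while 21.4% of all genes tested had such a p in either direction. On the recovered reads edgeR called 1 mRNA higher (0.75% of all genes higher, 0.708% lower) and DESeq2 called 2 (3.4% higher, 4.32% lower), and neither called one lower.

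Of the complexes, the ATP synthase had the largest ratio between the groups, but both its mRNAs lie wholly inside the copied stretch. The other mRNAs inside it, of complexes I and IV, had log2 fold changes of 0.23 (mt-Co3) to 0.61 (mt-Nd3). Those of the 5 mRNAs wholly outside ran from 0.13 to 0.24. For the ATP synthase, complex and position in the stretch cannot be told apart. mt-Atp8 rose to 201.9 and 214.3 normalized counts in the libraries labelled Osr1GCE/GCE, against 90.5 and 80.6 in Osr1controls, from 186 and 173 reads against 127 and 77 reads. The groups lay apart by more than the spread within either, with means of 208 ± 8.74 and 85.5 ± 6.98 (SD, n = 2 each), a log2 fold change of 1.27 ± 0.21 (SE, as for all log2 fold changes given with an error) on the scale log2(normalized count + 1), and an adjusted p of 0.0329 in limma. Only 0.452% of all genes tested had a log2 fold change at least as large. The call was lost without the first library labelled Osr1GCE/GCE (log2 fold change 1.32) and without the second (log2 fold change 1.23). In both fits fewer of all genes tested were called than with all libraries. Plain limma (without the trend and robust options) gave mt-Atp8 an adjusted p of 0.211, but it called 0 of all genes tested. With a library left out, the lone library of its group is assumed to vary like the other group. mt-Atp6 had 1016 and 1083 counts in the libraries labelled Osr1GCE/GCE, against 826 and 643 in Osr1controls. Its groups did not overlap either, and its log2 fold change of 0.53 ± 0.14 had a limma adjusted p of 0.0851. DESeq2 on the recovered reads called it (adjusted p = 0.0300), as did limma without the first Osr1controls library (log2 fold change 0.71). In that limma fit more of all genes tested were called than with all libraries, and only the pair labelled Osr1GCE/GCE gives the gene's own spread. mt-Atp8 counts amounted to 19.9% and 19.8% of mt-Atp6 counts in the libraries labelled Osr1GCE/GCE, against 10.9% and 12.5% in Osr1controls. The exact two-sided permutation test of this ratio gave p = 0.333, the smallest value that 2 against 2 libraries allow.

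Complex I, the NADH dehydrogenase, has 7 mitochondrial subunits, and none of their mRNAs passed the test. mt-Nd2 had 97366 and 89250 counts in the libraries labelled Osr1GCE/GCE, against 84065 and 73715 in Osr1controls, with a log2 fold change of 0.24 ± 0.10 (limma adjusted p = 0.196). mt-Nd1 had 159892 and 153788 counts in the libraries labelled Osr1GCE/GCE, against 150249 and 136482 in Osr1controls. All 7 lay higher in both libraries labelled Osr1GCE/GCE, as did 24.7% of all genes tested, with log2 fold changes of 0.13 for mt-Nd1 to 0.61 for mt-Nd3. mt-Nd5 had 130414 and 119737 counts against 116468 and 102138 in Osr1controls, and mt-Nd4 had 73298 and 69696 against 66787 and 58568. Those inside the copied stretch were far lower, as mt-Nd4l had 153 and 175 counts in the libraries labelled Osr1GCE/GCE against 127 and 107 in Osr1controls, and mt-Nd3 had 76.0 and 84.2 against 59.8 and 45.0. mt-Nd6, on the other strand, had 6913 and 6880 counts against 6202 and 5884 in Osr1controls, a log2 fold change of 0.19 ± 0.09 (limma adjusted p = 0.244). It overlaps mt-Nd5 by 14 bases, and without strand its counts may include reads of the opposite strand.

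No mRNA of complex III or complex IV passed the test. mt-Cytb had 199324 and 190704 counts in the libraries labelled Osr1GCE/GCE, against 185142 and 167304 in Osr1controls (log2 fold change 0.15 ± 0.09, limma adjusted p = 0.374). mt-Co1 had 360098 and 333579 counts against 324989 and 309754 in Osr1controls (log2 fold change 0.13 ± 0.08, limma adjusted p = 0.429). In both, the groups did not overlap, but the gap between them was smaller than the distance between the replicates of either group. mt-Co2 and mt-Co3, the other core subunits of cytochrome c oxidase, had log2 fold changes of 0.28 ± 0.13 and 0.23 ± 0.16. mt-Co2 had 1086 and 1268 counts in the libraries labelled Osr1GCE/GCE against 1046 and 890 in Osr1controls, without overlap. mt-Co3 was the 1 mRNA whose groups overlapped, at 921 and 1120 counts in the libraries labelled Osr1GCE/GCE against 990 and 762 in Osr1controls.

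**Figure D2:**
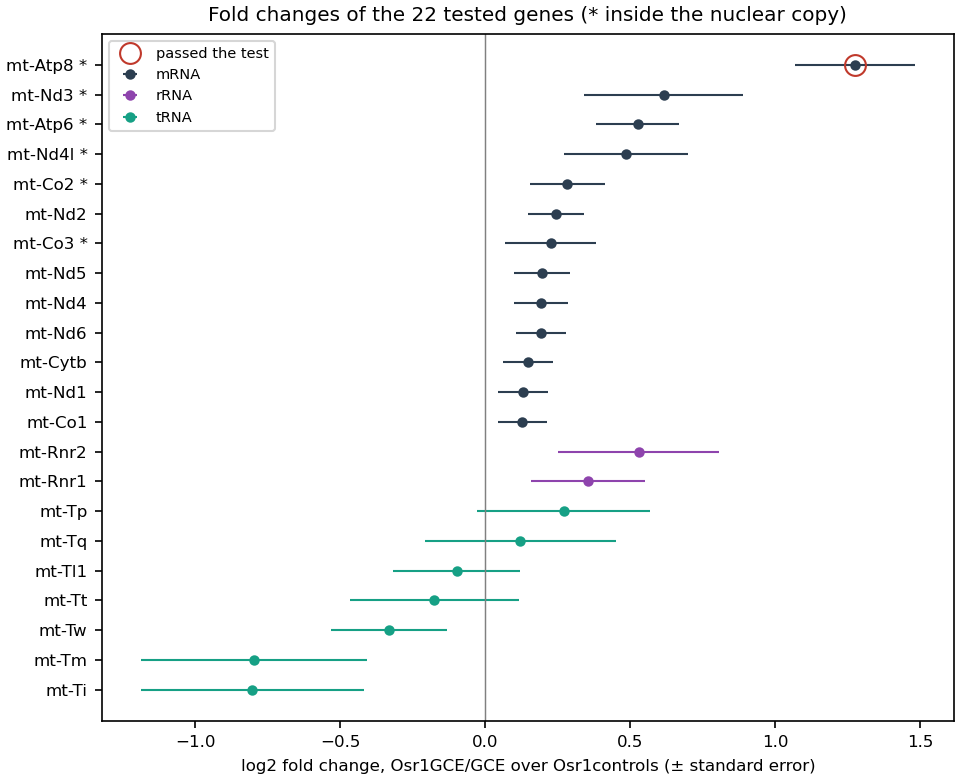
Log2 fold change, libraries labelled Osr1GCE/GCE over Osr1controls, with its standard error from limma, for the 13 mRNAs, the 2 rRNAs and the 7 tRNAs with enough reads for a test, and an asterisk on genes inside the copied stretch. mt-Atp8 at 1.27 is the 1 gene that passed the test (ringed), the other mRNAs lie between 0.13 and 0.61, and the tRNAs between -0.80 and 0.27.

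Summed over the 13 mRNAs, the libraries labelled Osr1GCE/GCE held 1030758 and 967578 normalized counts, against 937041 and 856372 in Osr1controls. The groups did not overlap, with a ratio of the means of 1.11 (log2 0.16), and the exact two-sided permutation p was 0.333, again the smallest possible. The 5 mRNAs wholly outside the copied stretch gave a log2 ratio of 0.17, and the 6 inside gave 0.38, with 3454 and 3944 counts against 3139 and 2526 in Osr1controls. As a share of all reads in genes the 13 mRNAs made up 2.51% and 2.47% against 2.46% and 2.24% in Osr1controls, a ratio of 1.06. By complex the log2 ratios of summed counts were 0.18 for complex I, 0.15 for complex III, 0.13 for complex IV and 0.62 for complex V. Both mRNAs of complex V lie wholly inside the copied stretch, while the counts of the other complexes come mostly from genes wholly or partly outside it. The 12 mRNAs of the plus strand gave 0.16 and mt-Nd6, the 1 mRNA of the minus strand, gave 0.19.

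The make-up of the mRNA pool was close between the libraries for the abundant mRNAs. mt-Co1 made up 34.9% and 34.5% of mitochondrial mRNA counts in the libraries labelled Osr1GCE/GCE, against 34.7% and 36.2% in Osr1controls, and mt-Cytb 19.3% and 19.7% against 19.8% and 19.5%. These shares overlapped between the groups, as did those of mt-Nd4, mt-Nd5, mt-Nd6, mt-Co2 and mt-Co3. mt-Nd2 had a larger share in both libraries labelled Osr1GCE/GCE, at 9.45% and 9.22% against 8.97% and 8.61% in Osr1controls, and mt-Nd1 a smaller one, at 15.51% and 15.89% against 16.03% and 15.94%. mt-Atp8 made up 0.0196% and 0.0221% against 0.0097% and 0.0094% in Osr1controls, and the shares of mt-Atp6, mt-Nd3 and mt-Nd4l were also separated. The exact permutation p was 0.333 for each of these 6 separated shares.

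The nuclear copies of the stretch were counted too, with means over the 4 libraries from 116 counts (Gm28438) to 1050.0 (Gm10925), and none of the 7 passed the test. Gm10925, identical to mt-Atp6 over 678 bases, had 1105 and 1444 counts in the libraries labelled Osr1GCE/GCE, against 885 and 765 in Osr1controls (log2 fold change 0.62 ± 0.15, limma adjusted p = 0.0683). Its groups were separated like those of mt-Atp6, and mt-Atp6 counts were 91.9% and 75.0% of Gm10925 counts against 93.3% and 84.0% in Osr1controls, which overlapped. Gm28439, identical to part of mt-Nd4, had 683 and 766 counts against 556 and 501 in Osr1controls (log2 fold change 0.45 ± 0.13, limma adjusted p = 0.102). The other 5 overlapped between the groups, and all 7 together had 4159 and 5018 counts in the libraries labelled Osr1GCE/GCE against 3892 and 3306 in Osr1controls. How the authors' counting treated reads that match several places is not given in the sources used here, so for identical stretches the mitochondrial and nuclear origin of reads cannot be told apart. Windows of 50 bases were also shared with other annotated transcripts by mt-Co1, mt-Co2, mt-Atp6, mt-Nd2, mt-Nd5 and mt-Rnr2, among them 411 windows of mt-Co1 with Gm13340 and 81 windows of mt-Nd2 with Gm13339. No window of mt-Atp8 occurred in another annotated transcript, but this search could not have found one in the copied stretch. The 43 bases that mt-Atp8 shares with mt-Atp6 lie in the part identical to Gm10925 and are shorter than a window. The rest of mt-Atp8 corresponds to the interval without annotation, whose sequence was not analysed.

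**Figure D3:**
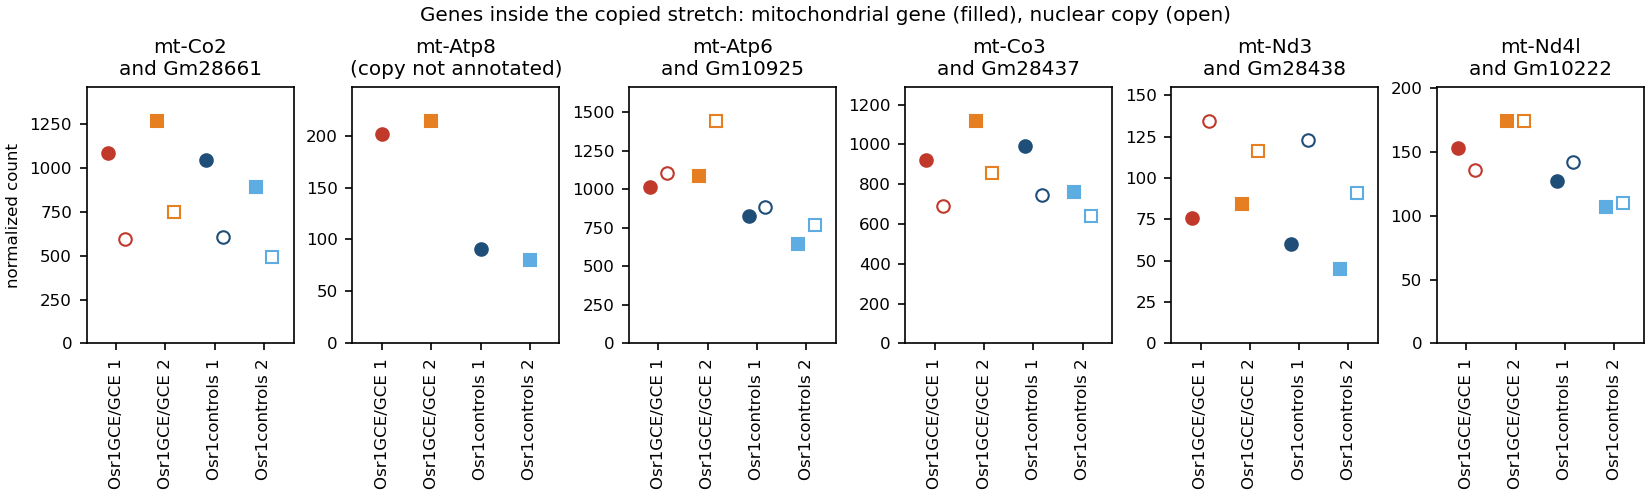
Normalized counts of the 6 mRNA genes inside the copied stretch (filled) and of their annotated nuclear copies (open) in the libraries labelled Osr1GCE/GCE and in Osr1controls. mt-Atp8, without an annotated copy, has 201.9 and 214.3 against 90.5 and 80.6, and mt-Atp6 and Gm10925 are both higher in the libraries labelled Osr1GCE/GCE.

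Neither rRNA passed the test, and the ratio of their sums was much smaller without 1 library. mt-Rnr2, the 16S rRNA, had 257136 and 158279 counts in the libraries labelled Osr1GCE/GCE, against 155292 and 125874 in Osr1controls. The first library labelled Osr1GCE/GCE stood far above the rest while the second was close to the first Osr1controls library, so that the groups narrowly did not overlap, and the log2 fold change was 0.53 ± 0.28 (limma adjusted p = 0.378). mt-Rnr1, the 12S rRNA, had 53271 and 39455 counts against 41295 and 31127 in Osr1controls, which overlapped (log2 fold change 0.35 ± 0.20, limma adjusted p = 0.370). Their sum had a log2 ratio of 0.52, which was 0.16 without the first library labelled Osr1GCE/GCE and 0.81 without the second, and mt-Rnr2 passed the test without the second (log2 fold change 0.88, limma adjusted p = 0.0383). The second is the lower of the pair, and without it the gene's own spread comes from the Osr1controls pair alone. At an unadjusted p under 0.05, 0 of the 2 rRNAs differed in limma, and 1 in edgeR and in DESeq2, with no call by either. rRNA counts were 30.1% and 20.4% of the mRNA sum in the libraries labelled Osr1GCE/GCE, against 20.98% and 18.3% in Osr1controls, so only the first library labelled Osr1GCE/GCE stood apart. Of 3526 nuclear small RNA genes whose RNAs lack a poly(A) tail 85 could be tested, with a median log2 fold change of 0.033, and all 3526 together summed to 4978 and 4700 counts in the libraries labelled Osr1GCE/GCE against 4444 and 4658 in Osr1controls. Whether the capture of such RNA differed between the libraries was not tested.

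**Figure D4:**
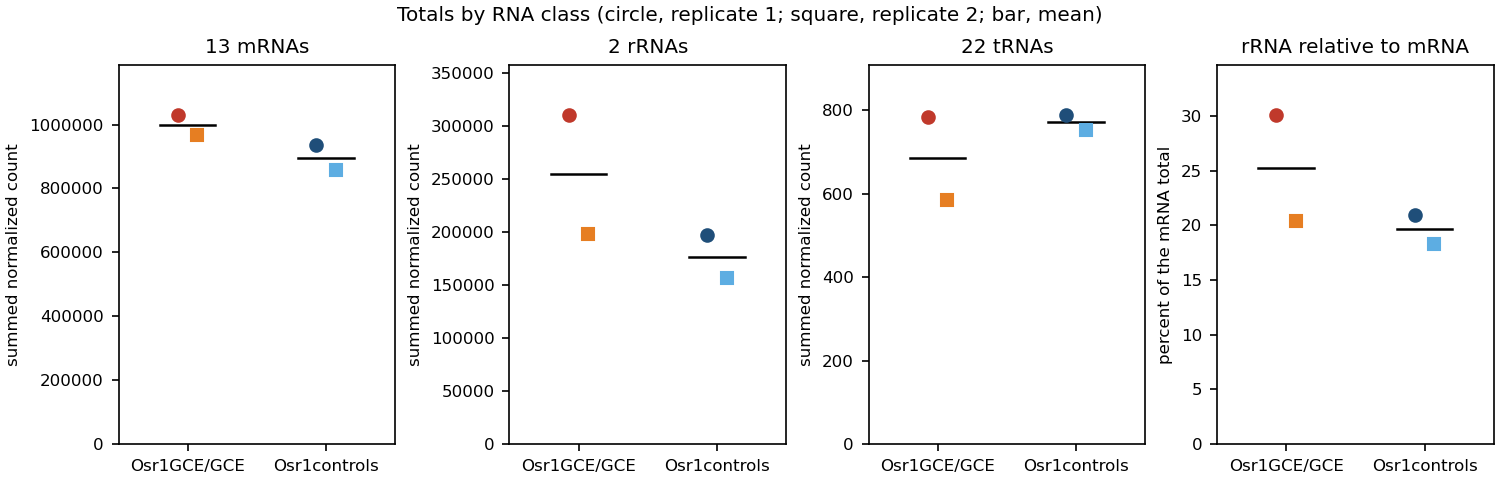
Summed normalized counts of the 13 mRNAs, the 2 rRNAs and the 22 tRNAs, and rRNA counts as a percentage of the mRNA sum, per library, with group means as bars. The mRNA sums do not overlap (1030758 and 967578 against 937041 and 856372 in Osr1controls), and in both rRNA panels the first library labelled Osr1GCE/GCE lies apart from the other 3.

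Most of the tRNAs had few reads. Of the 22, 15 fell under a mean of 10 counts and were not tested, and 6 of these (mt-Tf, mt-Tk, mt-Tg, mt-Tr, mt-Th and mt-Ts2) were at 0 in every library. The other 9 untested tRNAs (mt-Tv, mt-Tl2, mt-Ta, mt-Tn, mt-Tc, mt-Ty, mt-Ts1, mt-Td and mt-Te) reached at most 11.9 normalized counts and, in another library, at most 14 reads. Of the 22 tRNAs 5 lie wholly inside the copied stretch (mt-Ts1, mt-Td, mt-Tk, mt-Tg and mt-Tr), and 3 of these 5 were at 0 in every library. mt-Tf, mt-Th and mt-Ts2, also at 0, lie outside it. The 3 highest, mt-Tl1, mt-Tw and mt-Tt, held 76.1% of tRNA reads. These are tRNAs for leucine, tryptophan and threonine, and the 22 genes have 59 to 75 bases. The 22 summed to 784 and 586 counts in the libraries labelled Osr1GCE/GCE, against 789 and 754 in Osr1controls. These sums overlapped between the groups (log2 ratio -0.17, exact permutation p = 0.667).

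None of the 7 tested tRNAs passed the test in either direction, by limma, edgeR or DESeq2, and none had an unadjusted p under 0.05 by these tools, whereas plain limma gave 1 lower. Of the 7, 5 had a negative and 2 a positive log2 fold change, with a median of -0.18, and 3 lay lower in both libraries labelled Osr1GCE/GCE than in both Osr1controls libraries, as did 28.9% of all genes tested. mt-Ti, the tRNA for isoleucine, had 21.7 and 18.6 counts in the libraries labelled Osr1GCE/GCE, against 47.0 and 27.2 in Osr1controls (log2 fold change -0.80 ± 0.38, limma adjusted p = 0.272). mt-Tm, the tRNA for methionine, had 20.6 and 13.6 counts against 34.2 and 26.2 in Osr1controls (log2 fold change -0.80 ± 0.39, limma adjusted p = 0.282). mt-Tw had 206.3 and 158.6 counts against 230.8 and 225.0 in Osr1controls (log2 fold change -0.33 ± 0.20, limma adjusted p = 0.378). In these 3 the groups did not overlap, and mt-Ti and mt-Tm lie between mt-Nd1 and mt-Nd2, with mt-Tq, the tRNA for glutamine, between the pair. mt-Tq, on the other strand, had 31.5 and 38.4 counts in the libraries labelled Osr1GCE/GCE against 27.8 and 36.6 in Osr1controls, which overlapped. mt-Tl1 had 302.9 and 200.7 counts against 255.0 and 273.2, mt-Tt had 96.6 and 73.1 against 118.2 and 76.4, and mt-Tp, the tRNA for proline, had 77.1 and 57.0 against 47.0 and 63.8. The groups of these 3 overlapped as well. Relative to the mRNA sum, tRNA counts were 0.076% and 0.0606% in the libraries labelled Osr1GCE/GCE, against 0.0842% and 0.088% in Osr1controls, which were separated (exact permutation p = 0.333).

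The nuclear genes that transcribe, process, translate and replicate the mitochondrial genome were examined as 8 lists of 181 genes. Of the 180 tested, 0 passed the test in either direction with limma, edgeR or DESeq2. Over all genes tested limma called 1.13% higher and 1.75% lower, edgeR 0.75% and 0.708%, and DESeq2 3.4% and 4.32%. Plain limma also passed 0 of the 180, but it called 0 of all genes tested. At an unadjusted p under 0.05, limma had 4 higher and 10 lower, edgeR 7 and 8, DESeq2 5 and 4, and plain limma 0 and 3. The 14 of 180 in limma stand beside 21.4% of all genes tested at such a p in either direction. With 1 library left out, the lone library of its group was assumed to vary like the other group. Lrpprc, Qrsl1, Ears2 and Mrpl23 then passed in limma as lower without the first Osr1controls library, and Mars2 as higher without the second. In both fits more of all genes tested were called than with all libraries. The median log2 fold change of the 180 was -0.044, against the -0.020 of all genes tested. Polrmt had 1015 and 939 counts in the libraries labelled Osr1GCE/GCE, against 931 and 1060 in Osr1controls, and Tfam had 1310 and 1447 against 1361 and 1469. Both overlapped between the groups, as did Lrpprc with 5162 and 4596 counts against 4864 and 6982.

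By list the medians lay between -0.13 and 0.099, and in each list the gene with the smallest adjusted p in either direction is named. For transcription (11 genes) the median was -0.095. Tfb1m, which methylates the 12S rRNA, had 139 and 155 counts in the libraries labelled Osr1GCE/GCE against 217 and 245 in Osr1controls (log2 fold change -0.65 ± 0.19, limma adjusted p = 0.103). Tefm, the elongation factor of POLRMT, followed with 123 and 125 counts against 165 and 203 (log2 fold change -0.56 ± 0.21, limma adjusted p = 0.167), and Tfb2m led the positive members at 0.18 ± 0.12 (limma adjusted p = 0.415). Tfb1m and Tefm were separated between the groups, as were 28.9% of all genes tested in the lower direction, and neither passed the test. For precursor cleavage and tRNA maturation (20 genes) the median was -0.055. Trmt5, a tRNA methyltransferase, had 264 and 306 counts in the libraries labelled Osr1GCE/GCE against 342 and 439 in Osr1controls (log2 fold change -0.45 ± 0.18), and Elac2 had 1559 and 1514 against 1707 and 2025 (log2 fold change -0.28 ± 0.11), both at a limma adjusted p of 0.205. Qtrt1 was first among the positive members at 0.23 ± 0.13 (limma adjusted p = 0.334).

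For mRNA stability, polyadenylation and decay (14 genes) the median was -0.027, with Fastkd2 at 0.24 ± 0.11 (limma adjusted p = 0.242) and Fastkd1 at -0.26 ± 0.13 (0.283). For rRNA maturation (14 genes, of which Tfb1m and Mterf4 are also in the transcription list) it was -0.13, with Tfb1m first among the negative members and Mrm2 first among the positive ones at 0.17 ± 0.20 (limma adjusted p = 0.667). For replication of the mitochondrial DNA (16 genes) it was -0.13, and 12 of the 16 were negative. So were 11 of the 14 genes for rRNA maturation and 114 of the 180 tested genes over all lists, while 47.2% of all genes tested were positive. Slc25a33, a pyrimidine nucleotide carrier, had 1043 and 891 counts in the libraries labelled Osr1GCE/GCE against 687 and 803 in Osr1controls (log2 fold change 0.38 ± 0.13, limma adjusted p = 0.158). Rnaseh1, which removes RNA from RNA-DNA hybrids, had 208 and 251 counts against 295 and 340 in Osr1controls (log2 fold change -0.47 ± 0.18, limma adjusted p = 0.186), and Ssbp1, which coats single-stranded mitochondrial DNA, had 1006 and 1003 against 1117 and 1339 (log2 fold change -0.28 ± 0.12, limma adjusted p = 0.223). These 3 were separated between the groups without passing the test. Across all lists 32 of the 180 tested genes were separated as higher and 48 as lower, beside 24.7% and 28.9% of all genes tested. The regulators of mitochondrial biogenesis (9 genes) had the 1 positive median, 0.099, with Gabpa, a transcription factor for many of these nuclear genes, at 5724 and 5310 counts against 4624 and 4777 in Osr1controls (log2 fold change 0.23 ± 0.09, limma adjusted p = 0.189) and Esrra at -0.12 ± 0.13 (0.626). The 22 genes for charging mitochondrial tRNAs had a median of -0.041, with Mars2 at 0.47 ± 0.19 (limma adjusted p = 0.210) and Ears2 at -0.52 ± 0.21 (0.198). The 77 tested proteins of the mitochondrial ribosome had a median of -0.038, with Mrps6 at 0.26 ± 0.12 (limma adjusted p = 0.244) and Mrpl23 at -0.46 ± 0.16 (0.149).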

How the data were processed

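RNA of sorted LECs was measured in 4 libraries, grouped by the deposited labels. The authors made libraries with a TruSeq V2 kit, used STAR to align reads to mm10 and featureCounts to count reads of each gene, and scaled the counts with DESeq2 size factors. The sources used here give no versions and do not say how reads that match several places were handled. The deposited signal values are these normalized counts, and multiplied by size factors of 0.921 and 0.807 (Osr1GCE/GCE) and 1.40 and 0.955 (Osr1controls) all came to whole reads within 0.001. Of the gene IDs 55144 were found in GENCODE M21 and 241 were not. limma 3.58.1 (R 4.3.3; lmFit, eBayes with trend and robust options) was run on log2(value + 1) for genes with a mean of at least 10, with Benjamini-Hochberg adjustment over 19479 genes. The pseudocount understates changes of low genes. edgeR 4.0.16 and DESeq2 1.42.0 on the recovered reads, the replicate number as a block, other scalings, filters, pseudocounts and thresholds, and each library left out were alternatives, and a crossed pairing and a sum over mRNAs outside the copied stretch were added after seeing the data. The limma, edgeR and DESeq2 fits were first tested on simulated data. Shared windows were searched in annotated transcripts, as no genome sequence was used. All 37 mitochondrial genes are named, with up to 3 genes per direction and list of nuclear genes by smallest adjusted p. Polrmt, Tfam, Lrpprc, Osr1, some cell type markers and the annotated nuclear copies are named besides. Members and lists were chosen with earlier results of these data known. Python 3.11.15 with matplotlib 3.10.9 drew the figures.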

Additional observations from a re-analysis of the deposited data

How the results depend on the processing

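All 13 mRNAs and both rRNAs kept a positive log2 fold change under every alternative run. Blocks, filters, thresholds and plain limma leave the log2 fold change of a gene as it is. Only other scalings, tools, pseudocounts and left-out libraries could have changed a sign. The number of mitochondrial genes called higher, 1 as reported, was 2 with DESeq2 and at an adjusted p under 0.1 (mt-Atp8 and mt-Atp6), 0 with plain limma (no trend or robust options), and 0 to 2 with 1 library left out: 0 without the first library labelled Osr1GCE/GCE, 2 without the first Osr1controls library, and 1 without the second library labelled Osr1GCE/GCE, where mt-Rnr2 took the place of mt-Atp8. mt-Atp8 was called in 14 of 18 alternatives, with log2 fold changes of 1.19 to 1.36 and adjusted p of 0.000409 to 0.211. The 14 include the looser thresholds on fold change and adjusted p, under which a call could not be lost. They also include a crossed pairing chosen after seeing the data. The labels do not say whether same-numbered libraries are paired. Their deviations correlated at -0.118 over 19479 genes, but with 2 libraries a group this cannot decide it. With the replicate number as a block in limma 0 mitochondrial genes were called, as mt-Atp8 had a limma adjusted p of 0.0553. A crossed pairing, chosen after seeing the data, called 2 mitochondrial genes and 1 nuclear gene of the lists higher. It called 1282 of all genes tested, against 562 without a block. The nuclear lists had 0 to 1 genes called higher and 0 to 4 lower with 1 library left out, with 4 lower without the first and 1 higher without the second Osr1controls library.

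The median log2 fold change of the mRNAs, 0.23 as reported, was 0.15 with library totals, 0.16 with totals of nuclear genes, and 0.15 to 0.34 with 1 library left out. Library totals moved the median of all genes to -0.092. The log2 ratio of summed tRNA counts was -0.40 to 0.023 with 1 library left out, and of summed mRNA counts 0.093 to 0.22 and of summed rRNA counts 0.16 to 0.81. Among single tRNAs, mt-Tt, mt-Tl1 and mt-Tq reversed without the second library labelled Osr1GCE/GCE (0.023, 0.20 and -0.019), and mt-Tt and mt-Tq without the first Osr1controls library (0.14 and -0.073), and over the left-out libraries they ran from -0.49 to 0.14, from -0.39 to 0.20 and from -0.073 to 0.31. The cause was not tested. Calls over all genes, 562 with 60.7% lower, numbered 469 with TMM scaling (49.5% lower), 677 with library totals (70.9% lower), 125 with the replicate block (76.8% lower), 284 with edgeR (48.6% lower), 1505 with DESeq2, 1120 without a filter, 1488 at an adjusted p under 0.1, 0 with plain limma, and 25 to 1460 with 1 library left out. With 2 libraries a group, exact permutation tests cannot reach the threshold. Genes with few reads, such as most of the tRNAs, allowed few tests, and the cause of their low counts was not tested.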
